A study of Arabidopsis thaliana with 10 samples.

Results

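Leaves of generation 2 plants, the progeny raised without heat from Arabidopsis thaliana Col-0 parents that had been grown at 30 °C, were set against leaves of 30 °C-grown plants of the parental generation. The comparison uses 4 of the 10 libraries of the study, chosen by their sample titles: 2 of generation 2 and 2 of 30 °C-grown plants. All carry the Col-0 genotype, and polyA RNA was taken from the fifth true leaf at 4 weeks of age under 16 h of light and 8 h of dark. The 30 °C-grown plants (generation 1) spent their first week on plates at 22 °C and were then moved to soil at 30 °C, whereas generation 2 was labelled as unstressed. The other groups, also of 2 libraries each, were generation 3 (unstressed progeny of generation 2), the mutant sgs3-12, whose growth temperature its labels do not give, and wild type at 22 °C. They entered the fit, and wild type is given beside members as a point of reference. Generation 2 and the 30 °C-grown plants thus differ in generation and in growth temperature together, and these cannot be told apart here. Whether both libraries of a group come from different plants is not stated, so p-values reflect the spread between these libraries alone, and that spread may be technical. No source used here gives the hour at which leaves were taken.

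The 4 libraries held 22278385 and 20533208 counts in generation 2, and 18894902 and 21649523 in 30 °C-grown plants. The generation 2 libraries agreed poorly with each other: log2 CPM (counts scaled to a common library size by TMM, a correction for library composition) correlated across genes at 0.797, against 0.976 within the 30 °C-grown pair. The biological coefficient of variation, the replicate spread relative to the mean, was 0.737 in the generation 2 pair and 0.230 in the 30 °C-grown pair. Library 1 of generation 2 also stood apart by gene length. Its levels changed by −1.94 on the log2 scale per 10-fold of length, against 0.477 in library 2 of generation 2, and −0.381 and 0.0538 in the 30 °C-grown libraries. The plot of gene lists therefore shows both generation 2 libraries beside the fitted median. None of 5 shoot meristem and 6 root markers had enough counts to test: STM, WUS, CLV3, RHD6, PLT1 and EXPA7 were at 0 in these 4 libraries, and KNAT1, KNAT2, WER, WOX5 and COBL9 had at most 4 counts in any of them. Photosynthesis genes of leaf mesophyll were abundant, with the antenna gene LHCB1.3 at 58025 and 16468 CPM in generation 2, and 19291 and 17007 CPM in 30 °C-grown plants. Of 5 flower and seed markers, AP3, CRA1 and OLEO1 were at 0, the flower gene PI was at 0.224 and 0.0972 CPM in generation 2, against 0.292 and 0 CPM in 30 °C-grown plants, and AG was at 5.94 and 1.02 CPM in generation 2, against 0.632 and 0.761 CPM in 30 °C-grown plants.

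**Figure D1:**
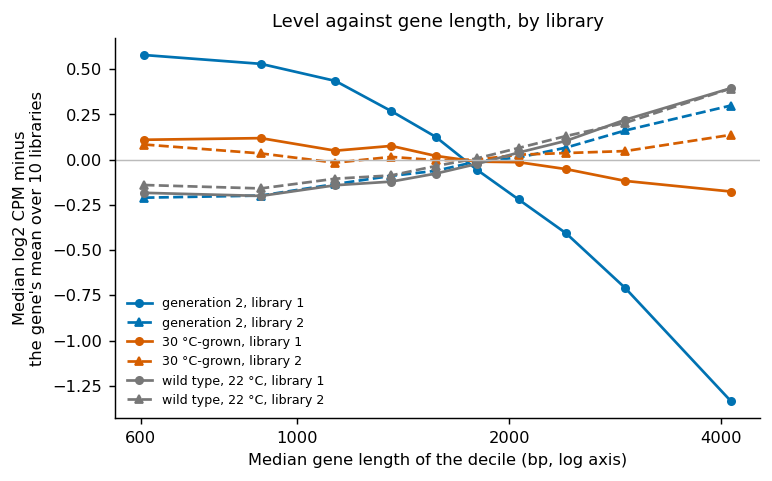
Median deviation of log2 CPM from each gene's mean over the 10 libraries (vertical axis) in 10 equal groups of genes ordered by length in bp (horizontal axis, log scale), with 1 line for each library of generation 2, 30 °C-grown plants and wild type. Library 1 of generation 2 runs down from 0.579 in the shortest genes to −1.33 in the longest; the other lines stay between −0.210 and 0.395.

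At high temperature, plant cells make heat shock proteins, chaperones that hold or refold damaged proteins. Heat shock factors switch on their genes by binding heat shock elements, short repeats of GAA and TTC in the promoters. Growth in constant warmth also shifts the clock, flowering time, sugar use and defence in leaves, and salicylic acid defence is known to be weaker in warm-grown Arabidopsis.

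Over all genes, no difference passed the test. The quasi-likelihood test of edgeR, with Benjamini-Hochberg adjustment over 19768 genes, called 0 genes higher (0%) and 0 lower (0%) at an adjusted p under 0.05, and the lowest adjusted p was 0.476. At an unadjusted p under 0.05, 1048 genes (5.3%) were higher in generation 2 and 801 (4.05%) were lower. By DESeq2, 219 genes (1.11%) were higher and 126 (0.637%) lower, while limma-voom with sample weights called 0, with 573 at an unadjusted p under 0.05. Without library 1 of generation 2, edgeR called 453 genes higher and 34 lower, where the spread of the lone library is taken from the rest of the groups; without library 2 it called 0. Both generation 2 libraries lay above both 30 °C-grown libraries for 3301 genes (16.7%) and below both for 3700 (18.7%). Gene groups below are described by how many tested members lay outside the 30 °C-grown pair in both generation 2 libraries, read against these shares. Fold changes are log2 values of generation 2 over 30 °C-grown plants (n = 2 per group), and their median over all genes tested was 0.07. The value after ± is an approximate standard error, the absolute fold change divided by the square root of the edgeR F statistic. The spread behind it was estimated from all 10 libraries.

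**Figure D2:**
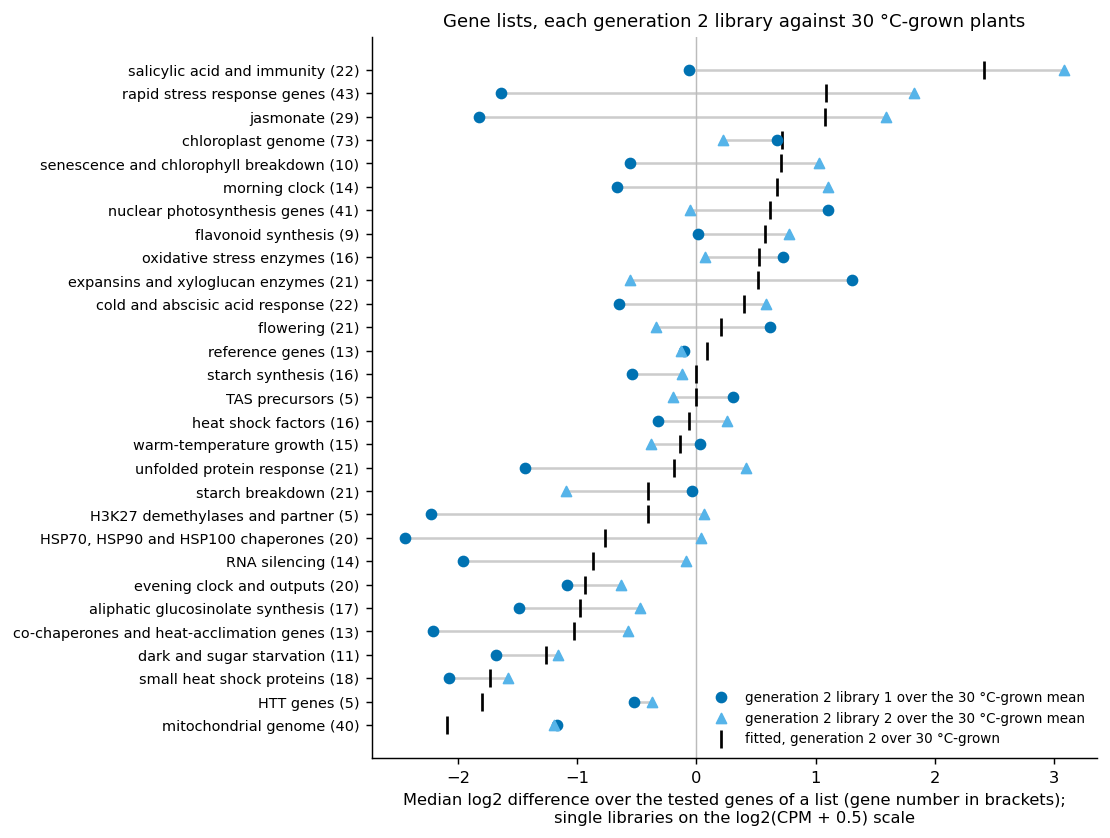
Median log2 difference from 30 °C-grown plants (horizontal axis) over the tested genes of each list (vertical axis, number of genes in brackets) in library 1 (circles) and library 2 (triangles) of generation 2 on the log2(CPM + 0.5) scale, with the fitted median as a bar. Small heat shock proteins, evening clock, glucosinolate and sugar starvation genes lie left of 0 in both libraries, whereas salicylic acid, rapid stress and jasmonate genes lie at −0.07, −1.64 and −1.83 in library 1 and at 3.09, 1.83 and 1.59 in library 2.

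Small heat shock protein genes, whose products hold unfolding proteins until other chaperones refold them, stood lower in generation 2 than in 30 °C-grown plants. All 18 members were tested, and 16 of them lay below both 30 °C-grown libraries in both generation 2 libraries, against 18.7% of all genes; 0 lay above. A member could reach enough counts to test through the 30 °C-grown libraries alone, as the low HSP22.0, HSP21 and HSP26.5 could. The number that lay lower is therefore a description. The median log2 fold change was −1.73, with 6 members lower at an unadjusted edgeR p under 0.05. DESeq2 called HSP17.6A and HSP23.5 lower. The cytosolic HSP17.6A (AT1G59860, chromosome 1, 22031413 to 22032132, TAIR10) had 1.79 and 2.28 CPM in generation 2, against 15.1 and 17.0 CPM in 30 °C-grown plants and 1.15 and 1.16 CPM in wild type. The generation 2 libraries were close to each other and far below the 30 °C-grown pair, with a log2 fold change of −2.97 ± 0.56. The mitochondrial HSP23.5 (AT5G51440, chromosome 5, 20891163 to 20892211) had 1.01 and 3.98 CPM in generation 2, against 21.2 and 21.0 CPM in 30 °C-grown plants (−3.07 ± 0.90); wild type was at 0.486 and 0.973 CPM. HSP22.0, of the endoplasmic reticulum, had 0 counts in both generation 2 libraries and 1.41 and 1.48 CPM in 30 °C-grown plants; taking 3 counts for the whole group as its floor, it was at least 18.53-fold lower. The chloroplast HSP21 was also at 0 in generation 2, against 0.437 and 0.550 CPM in 30 °C-grown plants, and by the same floor at least 6.37-fold lower. HSP26.5 had 0.112 and 0.146 CPM in generation 2, against 1.12 and 0.550 CPM in 30 °C-grown plants (−2.63 ± 0.89), also without overlap. The floors cover counting error only.

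Other small heat shock protein genes differed between the generation 2 libraries but still lay under the 30 °C-grown pair. HSP17.4 had 0.112 and 7.09 CPM in generation 2, against 21.6 and 12.3 CPM in 30 °C-grown plants (−2.22 ± 1.83). HSP17.6B had 3.14 and 13.3 CPM in generation 2, against 40.0 and 27.7 CPM in 30 °C-grown plants (−2.04 ± 1.3). In both, library 2 was the higher generation 2 library, and wild type showed the same kind of split, at 0.0442 and 1.62 CPM for HSP17.4 and 1.24 and 3.94 CPM for HSP17.6B. The members outside the pattern were HSP21.7, at 25.96 and 16.9 CPM in generation 2 and 17.69 and 16.2 CPM in 30 °C-grown plants, and HSP15.7, at 4.54 and 0.486 CPM in generation 2 and 3.35 and 3.47 CPM in 30 °C-grown plants. Library 1 lay above the 30 °C-grown pair in both genes, and library 2 lay within the pair for HSP21.7 and below it for HSP15.7. Taken by library, 16 members in library 1 and 17 in library 2 were under both 30 °C-grown libraries. With gene length as an offset the median was −1.67, and it was −2.08 without library 1 of generation 2 and −3.52 without library 2. In the same fit, the median of the list over wild type was 0.81 in generation 2 and 3.43 in 30 °C-grown plants; these contrasts share libraries with the main one.

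**Figure D3:**
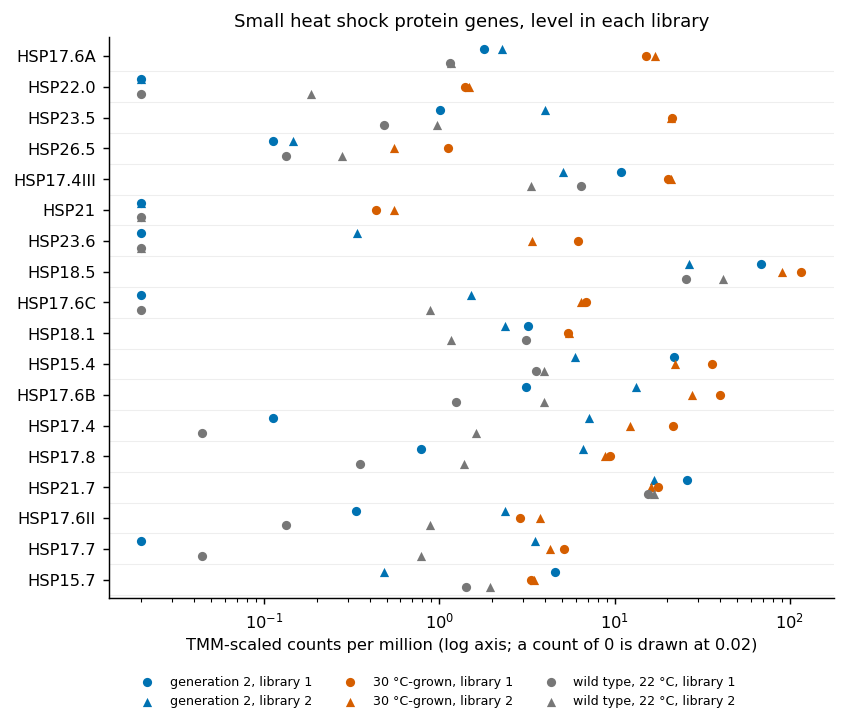
Level of each of the 18 small heat shock protein genes (vertical axis, ordered by p) in each library of generation 2, 30 °C-grown plants and wild type (horizontal axis, TMM-scaled CPM, log scale; 0 counts drawn at 0.02). For 16 genes both blue generation 2 points lie left of both orange 30 °C-grown points, as for HSP17.6A at 1.79 and 2.28 CPM in generation 2, against 15.1 and 17.0 CPM in 30 °C-grown plants.

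The 250 bases upstream of these genes, read from the RefSeq TAIR10.1 genome and annotation, were searched for the element that heat shock factors bind. They are printed for the 4 members with the smallest p that hold a pair of heat shock units, GAANNTTC or TTCNNGAA on either strand (each reads the same on both strands, and matches may overlap); capitals mark the matches, and each sequence runs 5′ to 3′ along the strand of the gene up to the base before its start.
HSP23.5 (chr5:20890913-20891162, plus strand): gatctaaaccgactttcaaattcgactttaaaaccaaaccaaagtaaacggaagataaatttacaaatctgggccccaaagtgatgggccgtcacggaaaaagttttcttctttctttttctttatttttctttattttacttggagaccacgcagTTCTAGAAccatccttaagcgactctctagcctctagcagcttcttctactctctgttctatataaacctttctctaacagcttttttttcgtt
HSP26.5 (chr1:19575867-19576116, minus strand): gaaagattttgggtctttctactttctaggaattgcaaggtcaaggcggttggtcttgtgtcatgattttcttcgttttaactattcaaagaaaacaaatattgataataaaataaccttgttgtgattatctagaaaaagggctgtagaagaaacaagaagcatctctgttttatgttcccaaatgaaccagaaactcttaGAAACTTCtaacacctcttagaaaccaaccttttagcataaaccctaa
HSP21 (chr4:13819972-13820221, minus strand): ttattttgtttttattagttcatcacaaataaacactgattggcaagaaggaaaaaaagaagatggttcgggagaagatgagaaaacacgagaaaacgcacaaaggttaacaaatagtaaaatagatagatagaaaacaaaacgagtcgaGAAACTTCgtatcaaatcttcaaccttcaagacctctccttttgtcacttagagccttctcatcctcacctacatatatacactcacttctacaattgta
HSP17.6C (chr1:19980049-19980298, plus strand): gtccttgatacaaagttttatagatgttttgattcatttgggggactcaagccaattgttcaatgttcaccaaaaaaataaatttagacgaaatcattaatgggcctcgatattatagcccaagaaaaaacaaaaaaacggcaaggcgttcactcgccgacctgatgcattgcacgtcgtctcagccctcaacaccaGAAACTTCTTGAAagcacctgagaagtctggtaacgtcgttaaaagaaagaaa
The match nearest the gene start ended 86, 40, 92 and 40 bases upstream, in the order printed. Such a pair was found upstream of 7 of the 18 small heat shock protein genes (38.9%) and of 3029 of 18977 tested protein-coding genes (16.0%). The longer run of 3 units, GAANNTTCNNGAA or its reverse complement, was found upstream of 2 of the 18 (11.1%), HSP17.6C and HSP17.4, and of 79 of the 18977 (0.416%). A match is a description of these letters, not evidence of binding, and HSP17.6A held none in this window.

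The larger chaperones divided by library. Among 20 tested HSP70, HSP90 and HSP100 genes, 7 lay below both 30 °C-grown libraries in both generation 2 libraries and 0 above, with a median log2 fold change of −0.77. In library 1 all 20 were below, whereas in library 2 7 were below and 8 above. The genes of this list are long, with a median of 2581 bp, in the range where library 1 was low for genes of all kinds; with a length offset the median was −0.77, and 16 of the 20 were negative. With no offset the median was 0.04 without library 1 and −2.68 without library 2. HSP70-4 (AT3G12580), the strongly heat-inducible cytosolic HSP70, had 4.49 and 114 CPM in generation 2, against 279.9 and 360.1 CPM in 30 °C-grown plants (−2.43 ± 1.4) and 8.71 and 9.04 CPM in wild type. Both generation 2 libraries were lower, but they differed from each other by a larger factor than the 30 °C-grown libraries did. HSP101 (AT1G74310), the disaggregase needed for acquired heat tolerance, had 1.96 and 10.2 CPM in generation 2, against 16.0 and 34.0 CPM in 30 °C-grown plants (−2.04 ± 0.79). Wild type was at 10.2 and 8.11 CPM for HSP101. HSP90.1, the inducible cytosolic HSP90, had 2.97 and 57.7 CPM in generation 2, against 65.4 and 121 CPM in 30 °C-grown plants (−1.62 ± 1.24). HSP70-5, another heat-inducible HSP70, had 0.673 and 4.18 CPM in generation 2, against 4.42 and 7.19 CPM in 30 °C-grown plants (−1.25 ± 0.75), with library 2 just under the pair. Wild type, at 6.41 and 6.12 CPM, overlapped the 30 °C-grown pair for HSP70-5, and both generation 2 libraries lay below wild type as well. HSP70-2 was on the other side in library 2 alone, at 2.47 and 90.9 CPM in generation 2, against 5.39 and 9.98 CPM in 30 °C-grown plants. Several HSP70 and HSP90 genes are near-identical copies, and no source used here tells how reads common to them were counted, which leaves single members uncertain.

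Co-chaperones and heat-acclimation genes were lower in 7 of 13 cases without overlap, and higher in 0. The median of −1.03 was −0.63 without library 1 and −2.48 without library 2. BAG6 (AT2G46240), a BAG-domain protein, had 0.336 and 1.99 CPM in generation 2, against 6.75 and 16.7 CPM in 30 °C-grown plants (−3.31 ± 0.81; called by DESeq2). Wild type was at 13.3 and 22.8 CPM, so here both generation 2 libraries lay below wild type as well. HSA32, needed for heat memory after acclimation, had 4.15 and 1.90 CPM in generation 2, against 7.39 and 6.34 CPM in 30 °C-grown plants (−1.18 ± 0.48). HOP3, which links HSP70 to HSP90, had 0.897 and 16.6 CPM in generation 2, against 31.3 and 64.5 CPM in 30 °C-grown plants (−2.45 ± 1.26), and the J-domain gene AT2G20560 had 5.72 and 12.5 CPM in generation 2, against 25.1 and 31.5 CPM in 30 °C-grown plants (−1.63 ± 0.58). Both lay below the pair, lowest in library 1. ROF2, an FKBP-type partner of HSP90, had 1.96 and 46.8 CPM in generation 2, against 56.7 and 133 CPM in 30 °C-grown plants (−1.96 ± 1.29), with library 2 close under the lower of the pair. Among heat shock factors, 16 of 21 were tested. Of these, 2 lay lower (12.5%) and 1 higher (6.25%) without overlap, both shares under those of all genes. The median was −0.07, and 0.27 without library 1 and −0.51 without library 2. HSFC1 (AT3G24520), the member with the smallest p, had 20.6 and 158 CPM in generation 2, against 22.7 and 20.3 CPM in 30 °C-grown plants (2.05 ± 0.86), so it stood high in library 2 and close to the pair in library 1. HSFA4C had 14.1 and 19.2 CPM in generation 2, against 12.1 and 11.5 CPM in 30 °C-grown plants (0.50 ± 0.33), and HSFA1B, one of the factors that start the heat response, had 5.27 and 10.3 CPM in generation 2, against 10.11 and 16.0 CPM in 30 °C-grown plants (−0.74 ± 0.46). HSFA2 (AT2G26150), which sustains the heat response, had 1.46 and 2.09 CPM in generation 2, against 4.96 and 4.52 CPM in 30 °C-grown plants (−1.41 ± 0.74) and 1.11 and 0.278 CPM in wild type. HSFB2A did not separate the groups, at 18.05 and 20.8 CPM in generation 2 and 25.3 and 17.42 CPM in 30 °C-grown plants, both pairs above the 6.01 and 5.10 CPM of wild type. Genes of the unfolded protein response, which guards the endoplasmic reticulum, split by library: 19 of 21 lay below the pair in library 1, and 14 above it in library 2. The fitted median of −0.19 was 0.42 without library 1 and −1.73 without library 2. Without overlap, 4 (19.0%) lay lower, a share near that of all genes, and 0 higher. BZIP60, the transcription factor of the response, had 56.8 and 202 CPM in generation 2, against 60.3 and 38.3 CPM in 30 °C-grown plants (1.39 ± 0.62). The chaperone gene CNX2 had 13.8 and 22.2 CPM in generation 2, against 37.6 and 37.4 CPM in 30 °C-grown plants (−1.06 ± 0.45), SDF2 had 23.0 and 35.7 CPM in generation 2, against 47.6 and 50.6 CPM in 30 °C-grown plants (−0.74 ± 0.46), and the low NAC103 had 0.168 and 0.243 CPM in generation 2, against 0.437 and 0.972 CPM in 30 °C-grown plants (−1.75 ± 0.81).

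The HTT genes, targets of trans-acting small RNAs from TAS1 and known for a part in heat tolerance, included 2 members that lay lower without overlap. HTT1 (AT4G29770, chromosome 4, 14575718 to 14577643) had 0.112 and 0.146 CPM in generation 2, against 2.53 and 2.03 CPM in 30 °C-grown plants (−4.07 ± 0.79; called by DESeq2), and 0.354 and 0.0927 CPM in wild type. HTT3 (AT5G18065) had 1.23 and 0.778 CPM in generation 2, against 4.71 and 2.33 CPM in 30 °C-grown plants (−1.80 ± 0.56). HTT2 was nearly level, at 10.09 and 12.1 CPM in generation 2 and 10.6 and 11.2 CPM in 30 °C-grown plants (0.03 ± 0.33). HTT4 had 1 count in all in generation 2 and 10 in 30 °C-grown plants, a ratio of 8.68 lower with a 95% exact counting interval of 1.24 to 377. HTT5 was at 0 and 2.19 CPM in generation 2, against 0.146 and 0.296 CPM in 30 °C-grown plants. HTT4 and HTT5 were added to the list after the values were seen, and related sequence makes single members uncertain. The TAS precursors themselves did not separate the groups: of 5 tested, 0 lay higher and 0 lower without overlap, with a median of −0.01. TAS1C, the one with the smallest p, had 15.3 and 7.19 CPM in generation 2, against 7.39 and 6.09 CPM in 30 °C-grown plants (0.74 ± 0.42). TAS2, TAS1B and TAS3A overlapped, with TAS2 at 10.09 and 5.98 CPM in generation 2, against 8.60 and 4.82 CPM in 30 °C-grown plants.

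SGS3 (AT5G23570, chromosome 5, 7943124 to 7946050), which binds RNA and works with RDR6 to make trans-acting small RNAs, had 9.48 and 7.87 CPM in generation 2, against 25.4 and 21.0 CPM in 30 °C-grown plants and 24.0 and 35.1 CPM in wild type. Both generation 2 libraries lay below all of the others given here, with a log2 fold change of −1.42 ± 0.34 over 30 °C-grown plants (edgeR adjusted p = 0.476). DESeq2 gave an adjusted p of 0.00688, and over all alternatives run the adjusted p ranged from 0.00688 to 1.00. Of 14 RNA silencing genes, 5 lay lower without overlap and 0 higher. AGO1, the main slicer of microRNA targets, had 38.0 and 88.2 CPM in generation 2, against 125 and 137 CPM in 30 °C-grown plants (−1.05 ± 0.43). RDR6 had 3.70 and 15.696 CPM in generation 2, against 17.3 and 21.0 CPM in 30 °C-grown plants (−0.98 ± 0.58). RDR2, of the pathway that directs DNA methylation, had 0.224 and 3.16 CPM in generation 2, against 3.26 and 5.88 CPM in 30 °C-grown plants (−1.42 ± 0.95). AGO1, RDR2 and RDR6 were lowest in library 1 and nearer to the 30 °C-grown pair in library 2, whereas SGS3 was low in both. The median of the list was −1.96 in library 1 and −0.09 in library 2 on the log2(CPM + 0.5) scale, its median length 4131 bp, and its median with the length offset was −0.65, against −0.87 without it. Of 5 genes for H3K27 demethylases and a partner, 1 lay lower (20%, near the share of all genes) and 0 higher without overlap. JMJ30, an evening-expressed demethylase gene, was the lower one, at 1.12 and 0.292 CPM in generation 2, against 3.06 and 3.21 CPM in 30 °C-grown plants (−2.15 ± 1.17). JMJ32 and ELF6 overlapped between the groups. REF6, one of these demethylases, also overlapped between the groups, at 2.86 and 16.8 CPM in generation 2 and 12.6 and 19.4 CPM in 30 °C-grown plants (−0.70 ± 0.79).

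Transcripts of the mitochondrial genome made up 0.00365% and 0.00345% of counts in generation 2, against 0.0246% and 0.0164% in 30 °C-grown plants. Of 146 such genes only 40 had enough counts to test, and a gene could pass that filter through the 30 °C-grown libraries alone, so the number that lay lower (40, with 3 called by DESeq2) is a description. Both generation 2 libraries were low alike. ATP9, a subunit of the ATP synthase, had 8.97 and 5.01 CPM in generation 2, against 61.7 and 50.1 CPM in 30 °C-grown plants (−3.00 ± 0.61) and 2.48 and 6.35 CPM in wild type. ATP1, another subunit, had 0.729 and 1.07 CPM in generation 2, against 9.09 and 5.58 CPM in 30 °C-grown plants (−3.02 ± 0.68). The 30 °C-grown plants thus stood above both other groups for ATP9. Organelle transcripts mostly lack stable poly(A) tails, and the part of polyA selection in these shares was not tested. No source used here tells how reads that match several places in the genome were counted, which leaves organelle genes uncertain as well. Of 133 chloroplast genes 73 were tested, under the same limit of the filter, and 36 lay higher without overlap and 7 lower. The photosystem II core gene PSBB had 16.8 and 7.87 CPM in generation 2, against 3.98 and 3.34 CPM in 30 °C-grown plants (1.75 ± 0.46; called by DESeq2).

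Genes that respond to darkness and sugar shortage were lower in generation 2. Of 11 tested, 7 lay lower without overlap and 0 higher, with a median log2 fold change of −1.26; DESeq2 called none. BT2 (AT3G48360), a BTB/TAZ scaffold protein repressed by sugar, had 4.04 and 22.6 CPM in generation 2, against 152 and 131 CPM in 30 °C-grown plants (−3.41 ± 1.15). DIN10, a raffinose synthase-like gene induced in the dark, had 89.9 and 61.6 CPM in generation 2, against 285 and 277 CPM in 30 °C-grown plants (−1.89 ± 0.80). ASN1, the dark-induced asparagine synthetase, had 11.5 and 17.2 CPM in generation 2, against 91.9 and 38.7 CPM in 30 °C-grown plants (−2.19 ± 1.07). For these, the generation 2 libraries lay under the lower 30 °C-grown library, and wild type spread widely, at 3.14 and 27.6 CPM for BT2. BT4, related to BT2, had 7.07 and 10.3 CPM in generation 2, against 26.6 and 20.8 CPM in 30 °C-grown plants (−1.45 ± 0.66). BT5 had 21.1 and 64.3 CPM in generation 2, against 102 and 98.6 CPM in 30 °C-grown plants (−1.23 ± 0.56), and its wild-type levels of 6.81 and 9.92 CPM lay below both groups.

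Of 21 starch breakdown genes, 7 lay lower (33.3%) and 2 higher (9.52%) without overlap, against 18.7% and 16.7% of all genes. The higher share was thus under that of all genes. The median of −0.41 was −1.1 without library 1 and −0.21 without library 2 of generation 2. PHS1, the plastid starch phosphorylase, had 53.5 and 48.3 CPM in generation 2, against 78.6 and 169 CPM in 30 °C-grown plants (−1.28 ± 0.43) and 589 and 559.5 CPM in wild type. The glucan phosphorylating enzymes followed the same order: GWD1 had 31.0 and 55.4 CPM in generation 2, against 114 and 198 CPM in 30 °C-grown plants (−1.85 ± 0.64) and 403 and 1479.6 CPM in wild type. PWD, which acts after GWD1, had 9.98 and 18.7 CPM in generation 2, against 45.1 and 65.2 CPM in 30 °C-grown plants (−1.94 ± 0.75) and 66.5 and 393 CPM in wild type. In these 3 genes, the 30 °C-grown libraries lay between those of generation 2 and wild type. The wild-type libraries were far apart for GWD1 and PWD, and the lower one for PWD, at 66.5 CPM, was close to 65.2 CPM in 30 °C-grown plants. The part of the unknown hour of harvest in this order was not tested. PU1, a debranching enzyme, had 12.1 and 12.0 CPM in generation 2, against 14.2 and 19.9 CPM in 30 °C-grown plants (−0.50 ± 0.39). BAM5, a cytosolic beta-amylase outside the main route, stood higher in 30 °C-grown plants than in generation 2 and wild type. It had 1.85 and 50.1 CPM in generation 2, against 481 and 336 CPM in 30 °C-grown plants (−3.98 ± 1.66) and 2.70 and 5.93 CPM in wild type. Library 2 of generation 2 thus lay above both wild-type libraries, and library 1 below both. Of 16 starch synthesis genes, 5 lay lower (31.25%) and 2 higher (12.5%) without overlap, the higher share again under that of all genes. The library medians were −0.54 in library 1 and −0.12 in library 2 on the log2(CPM + 0.5) scale. APL2, a subunit of the enzyme that makes ADP-glucose, had 6.17 and 6.07 CPM in generation 2, against 9.57 and 13.8 CPM in 30 °C-grown plants (−0.93 ± 0.37). ISA2, a debranching enzyme subunit, had 37.7 and 29.4 CPM in generation 2, against 51.3 and 58.5 CPM in 30 °C-grown plants (−0.71 ± 0.33), and the starch synthase genes SS1 and SS4 had 99.5 and 123 CPM and 13.2 and 31.7 CPM in generation 2, against 153 and 169 CPM and 29.6 and 62.1 CPM in 30 °C-grown plants. SS4 overlapped between the groups and the other 3 did not.

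Evening genes of the circadian clock and their outputs lay lower in generation 2 in 10 of 20 cases without overlap, and higher in 0, with a median of −0.93. ELF3 (AT2G25930), a core part of the evening complex that represses morning genes, had 5.61 and 3.60 CPM in generation 2, against 16.4 and 16.0 CPM in 30 °C-grown plants (−1.82 ± 0.77). PRR5, a repressor of the morning genes CCA1 and LHY, had 0.729 and 1.80 CPM in generation 2, against 9.28 and 11.3 CPM in 30 °C-grown plants (−3.01 ± 1.75). LUX, the DNA-binding member of the evening complex, had 5.16 and 4.23 CPM in generation 2, against 15.8 and 11.7 CPM in 30 °C-grown plants (−1.55 ± 0.99). In all 3 both generation 2 libraries lay below the 30 °C-grown pair, but the wild-type libraries were far apart, at 18.3 and 79.1 CPM for ELF3, 4.07 and 127 CPM for PRR5 and 4.07 and 73.8 CPM for LUX. PRR3, of the same family as PRR5, had 1 count in generation 2 and 41 in 30 °C-grown plants, 35.6-fold lower with a 95% exact counting interval of 6.04 to 1440.0. GI, a large nuclear protein of the evening clock, had 3.64 and 11.2 CPM in generation 2, against 16.9 and 20.0 CPM in 30 °C-grown plants (−1.31 ± 0.69). GRP7, an RNA-binding protein gene with a strong evening peak, had 117 and 17.3 CPM in generation 2, against 235 and 229.9 CPM in 30 °C-grown plants (−1.80 ± 1.43) and 80.9 and 3268 CPM in wild type. Among 14 morning genes, 4 lay higher and 1 lower without overlap. PRR9 had 65.7 and 34.6 CPM in generation 2, against 15.2 and 18.4 CPM in 30 °C-grown plants (1.58 ± 0.65). LNK4, of a family of morning coactivators, had 159 and 148 CPM in generation 2, against 70.3 and 53.7 CPM in 30 °C-grown plants (1.31 ± 0.66), and RVE6, which activates evening genes, had 26.8 and 24.6 CPM in generation 2, against 20.0 and 11.8 CPM in 30 °C-grown plants (0.69 ± 0.39). RVE2 lay the other way, at 1.402 and 9.38 CPM in generation 2, against 27.3 and 17.1 CPM in 30 °C-grown plants (−2.04 ± 0.90). CCA1, a core morning repressor, had 34.5 and 344 CPM in generation 2, against 76.6 and 91.4 CPM in 30 °C-grown plants (1.17 ± 1.2), so library 1 lay below the pair and library 2 above it. The hour of harvest moves such genes, and its part in these values was not tested.

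**Figure D4:**
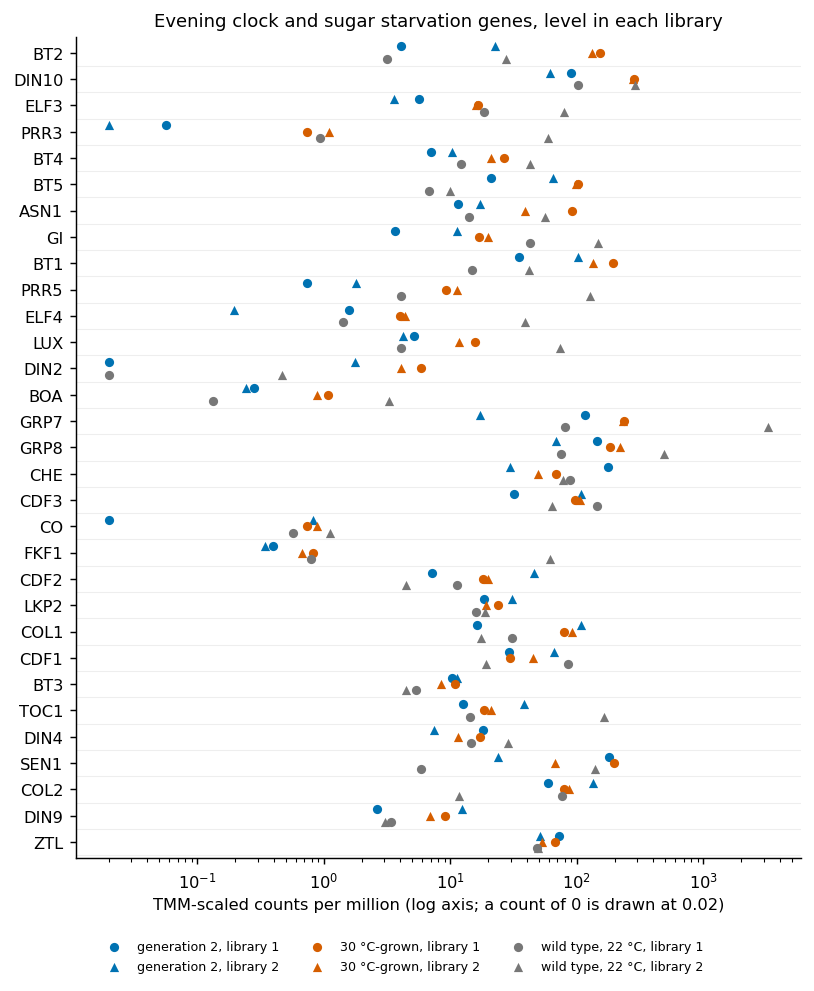
Level of each tested evening clock gene and each dark and sugar starvation gene (vertical axis, ordered by p) in each library of generation 2, 30 °C-grown plants and wild type (horizontal axis, TMM-scaled CPM, log scale; 0 counts drawn at 0.02). The generation 2 points lie left of the 30 °C-grown points for 10 of 20 evening genes and 7 of 11 starvation genes, and the wild-type points of many evening genes lie far apart, as for GRP7 at 80.9 and 3268 CPM.

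The upstream sequences of 4 evening genes, printed as above from TAIR10.1, show the evening element AAAATATCT, on which morning clock proteins act; capitals mark it on either strand.
PRR5 (chr5:8358547-8358796, minus strand): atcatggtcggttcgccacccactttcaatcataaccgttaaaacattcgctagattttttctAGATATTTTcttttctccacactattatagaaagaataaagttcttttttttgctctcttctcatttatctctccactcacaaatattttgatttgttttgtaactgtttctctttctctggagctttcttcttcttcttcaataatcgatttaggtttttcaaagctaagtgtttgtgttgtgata
LUX (chr3:17182792-17183041, plus strand): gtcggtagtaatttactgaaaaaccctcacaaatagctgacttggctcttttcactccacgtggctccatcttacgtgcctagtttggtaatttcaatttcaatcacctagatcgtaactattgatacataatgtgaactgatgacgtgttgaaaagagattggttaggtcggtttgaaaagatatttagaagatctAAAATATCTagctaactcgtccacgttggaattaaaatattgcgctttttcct
BOA (chr5:24003638-24003887, plus strand): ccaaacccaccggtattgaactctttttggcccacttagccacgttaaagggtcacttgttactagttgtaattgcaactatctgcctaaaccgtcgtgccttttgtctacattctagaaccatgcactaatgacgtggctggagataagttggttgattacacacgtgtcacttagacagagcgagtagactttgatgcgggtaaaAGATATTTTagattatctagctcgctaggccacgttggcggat
GRP7 (chr2:9266558-9266807, minus strand): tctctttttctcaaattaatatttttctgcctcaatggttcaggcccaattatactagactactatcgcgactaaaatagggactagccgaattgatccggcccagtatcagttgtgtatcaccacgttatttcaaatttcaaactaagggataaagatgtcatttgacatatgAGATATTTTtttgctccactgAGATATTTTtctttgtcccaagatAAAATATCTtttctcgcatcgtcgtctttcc
GRP7 held 3 copies and the others 1 each. The element was found upstream of 8 of 20 evening genes (40.0%), of 1 of 14 morning genes (7.14%), and of 482 of the 18977 tested protein-coding genes (2.54%). As before, a match describes the letters in this window.

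Aliphatic glucosinolate genes, which make the methionine-derived defence compounds of the mustard family, lay lower in 12 of 17 cases without overlap, and higher in 1, the regulator MYB29. The median was −0.98, or −1.49 in library 1 and −0.47 in library 2 on the log2(CPM + 0.5) scale. MAM1, the chain-elongation enzyme, had 168 and 394 CPM in generation 2, against 685 and 764 CPM in 30 °C-grown plants (−1.37 ± 0.54). CYP83A1, a core enzyme of the pathway, had 225 and 402 CPM in generation 2, against 669 and 699.6 CPM in 30 °C-grown plants (−1.13 ± 0.48). BCAT4, which takes the first step from methionine, had 310.3 and 261 CPM in generation 2, against 621 and 503 CPM in 30 °C-grown plants (−0.98 ± 0.46). All of these lay below the 30 °C-grown pair in both libraries, though CYP83A1 and MAM1 were lower in library 1 than in library 2. SOT18, a sulfotransferase that completes the core structure, had 35.7 and 128 CPM in generation 2, against 169 and 198 CPM in 30 °C-grown plants (−1.16 ± 0.65). DESeq2 called 0 members of the list, and edgeR placed 2 lower at an unadjusted p under 0.05.

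Jasmonate genes were divided. The vegetative storage protein genes VSP1 and VSP2, classical jasmonate markers, stood far lower in generation 2. VSP2 (AT5G24770) had 13.4 and 56.2 CPM in generation 2, against 692 and 406 CPM in 30 °C-grown plants (−3.98 ± 1.16; called by DESeq2) and 8.75 and 48.2 CPM in wild type. VSP1 had 2.86 and 3.60 CPM in generation 2, against 346 and 141 CPM in 30 °C-grown plants (−6.23 ± 1.62; called by DESeq2). The pair is closely related in sequence, so reads may be split between them. The repressor gene JAZ3 lay the other way, at 63.4 and 59.6 CPM in generation 2, against 35.5 and 22.6 CPM in 30 °C-grown plants (1.08 ± 0.37). Of 29 genes, 3 lay higher (10.3%) and 3 lower (10.3%) without overlap, both shares under those of all genes. Library 2 exceeded library 1 in 26. TAT3, a tyrosine aminotransferase, had 2.24 and 740.3 CPM in generation 2, against 14.4 and 4.06 CPM in 30 °C-grown plants, and the synthesis gene LOX4 had 1.402 and 627 CPM in generation 2, against 34.5 and 24.1 CPM in 30 °C-grown plants. Library 1 was thus below the 30 °C-grown pair and library 2 far above it, and the median of 1.08 describes neither library.

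Salicylic acid and immunity genes stood far above 30 °C-grown plants in library 2 of generation 2, whereas library 1 was divided, with 9 genes above and 11 below the pair. All 22 members were tested. Of these, 9 lay above both 30 °C-grown libraries in both generation 2 libraries, against 16.7% of all genes, and 0 below. A member could reach enough counts to test only through libraries where it stood high. PR1 and FMO1, at 1 and 0 counts in the 30 °C-grown pair, are examples. The number that lay higher is therefore a description. Library 2 exceeded library 1 in all 22. The median log2 fold change was 2.42, but −0.24 without library 2 and 3.37 without library 1. With only the 4 compared libraries in the fit, 18 members were tested and the median was 1.85. PR1 (AT2G14610, chromosome 2, 6241704 to 6242463), the standard marker of salicylic acid signalling, had 0.505 and 124 CPM in generation 2, against 0.0486 and 0 CPM in 30 °C-grown plants. Since the 30 °C-grown pair held 1 count, the ratio of 2958 has a 95% exact counting interval that starts at 530.5, and it rests on library 2. PR2, a beta-glucanase, had 5.94 and 133 CPM in generation 2, against 3.11 and 0.888 CPM in 30 °C-grown plants (5.13 ± 1.49). FMO1, which makes the immune signal N-hydroxypipecolic acid, had 0.0561 and 35.3 CPM in generation 2 and 0 in 30 °C-grown plants. With the floor of 3 counts over the group, generation 2 was at least 279-fold higher. That bound rests on library 2, since library 1 by itself lay under the floor. FMO1 counts among the 9 members above the pair on this low level in library 1. EDS5, the exporter of the salicylic acid precursor, had 2.07 and 43.6 CPM in generation 2, against 1.65 and 1.23 CPM in 30 °C-grown plants (3.99 ± 1.18). These 4 were the members DESeq2 called higher, and in each of them library 1 lay far nearer to the 30 °C-grown pair than library 2 did.

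Members with a smaller gap between the generation 2 libraries included SAG101, a partner of EDS1, at 11.8 and 44.9 CPM in generation 2, against 7.05 and 7.02 CPM in 30 °C-grown plants (2.01 ± 0.62). PAD4, another partner of EDS1, had 43.0 and 87.7 CPM in generation 2, against 24.5 and 24.7 CPM in 30 °C-grown plants (1.41 ± 0.72). NPR4, a salicylic acid receptor, had 37.2 and 44.7 CPM in generation 2, against 25.1 and 30.5 CPM in 30 °C-grown plants (0.56 ± 0.37). For these, both generation 2 libraries were above both 30 °C-grown libraries. The W-box core TTGAC, which WRKY factors bind, was found upstream of 9 of the 22 genes (40.9%) and of 44.9% of tested protein-coding genes, counting both strands. Rapid stress response genes, among them WRKY, ERF and calmodulin-like genes, showed the same split: library 2 exceeded library 1 in all 43, 37 lay below the 30 °C-grown pair in library 1, and 39 lay above it in library 2. Without overlap, 4 lay higher (9.30%) and 3 lower (6.98%), both shares under those of all genes. DESeq2 called CML9 and WRKY46 higher. The calmodulin-like gene CML9 was more even, at 256 and 370.0 CPM in generation 2, against 125 and 121 CPM in 30 °C-grown plants (1.34 ± 0.38). WRKY46, also called by DESeq2, had 5.05 and 66.2 CPM in generation 2, against 2.77 and 5.07 CPM in 30 °C-grown plants (3.18 ± 1.02), WRKY6 had 8.58 and 94.2 CPM in generation 2, against 11.3 and 7.53 CPM in 30 °C-grown plants (2.45 ± 0.88), and the flagellin-responsive kinase gene FRK1 had 0 and 34.6 CPM in generation 2, against 0.0972 and 0.0423 CPM in 30 °C-grown plants. WRKY40 showed the split, at 0.953 and 208 CPM in generation 2, against 21.5 and 29.2 CPM in 30 °C-grown plants.

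**Figure D5:**
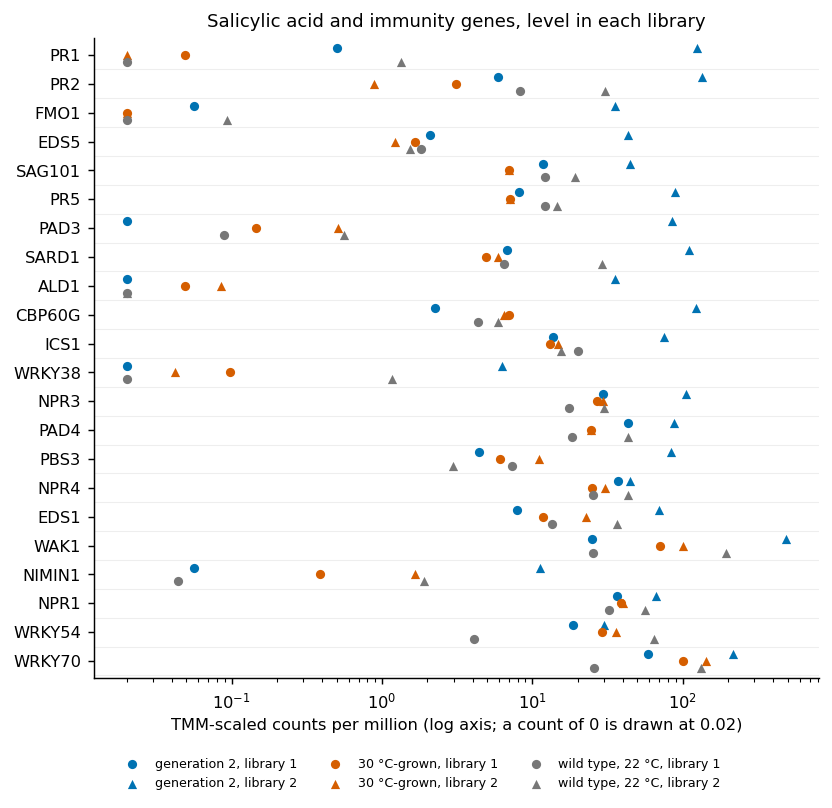
Level of each of the 22 salicylic acid and immunity genes (vertical axis, ordered by p) in each library of generation 2, 30 °C-grown plants and wild type (horizontal axis, TMM-scaled CPM, log scale; 0 counts drawn at 0.02). The triangle of generation 2 library 2 lies right of the circle of library 1 in all 22 genes, as for PR2 at 133 CPM in library 2 and 5.94 CPM in library 1.

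Several flowering regulators lay apart from 30 °C-grown plants in both generation 2 libraries. Of 24 genes 21 were tested, and 7 lay higher (33.3%) and 3 lower (14.3%) without overlap. Over all genes these shares were 16.7% and 18.7%, so the lower share was under that of all genes. DESeq2 called 3 of the tested members higher, against 1.11% of all genes. The median of 0.20 was −0.35 without library 1 and 0.49 without library 2 of generation 2. SPL4 (AT1G53160, chromosome 1, 19806419 to 19807608), a promoter of flowering controlled by the microRNA miR156, had 28.6 and 20.8 CPM in generation 2, against 1.99 and 2.24 CPM in 30 °C-grown plants (3.54 ± 0.48) and 13.6 and 6.86 CPM in wild type. SNZ (AT2G39250), an AP2-like repressor of flowering controlled by miR172, had 61.4 and 49.6 CPM in generation 2, against 5.44 and 4.74 CPM in 30 °C-grown plants (3.45 ± 0.66). FLM, a repressor tied to ambient temperature, had 47.3 and 21.1 CPM in generation 2, against 11.4 and 13.0 CPM in 30 °C-grown plants (1.49 ± 0.42). A promoter and repressors of flowering thus lay higher side by side, all with both libraries above the pair. SPL5, closely related to SPL4, had 4.32 and 6.46 CPM in generation 2, against 0.632 and 0.888 CPM in 30 °C-grown plants (2.81 ± 1.1). The repressor FLC was low, at 0.280 and 0 CPM in generation 2, against 2.04 and 1.18 CPM in 30 °C-grown plants (−3.52 ± 1.34). FT, the mobile flowering signal, overlapped, at 3.03 and 0.680 CPM in generation 2 and 2.04 and 1.48 CPM in 30 °C-grown plants.

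Oxidative stress enzymes lay on both sides, with 7 of 16 higher and 4 lower without overlap, and ascorbate peroxidases were found on each side. The median of 0.52 was 0.07 without library 1 and 0.57 without library 2 of generation 2. APX1, the main cytosolic ascorbate peroxidase, had 398 and 485 CPM in generation 2, against 162 and 153 CPM in 30 °C-grown plants (1.49 ± 0.62). Copper-dependent superoxide dismutases and their chaperone, all targets of the microRNA miR398, were on the higher side. CSD2 in the chloroplast had 956 and 596 CPM in generation 2, against 131 and 162 CPM in 30 °C-grown plants (2.40 ± 0.95). CSD1 in the cytosol had 305 and 233 CPM in generation 2, against 122 and 116 CPM in 30 °C-grown plants (1.18 ± 0.63). The chaperone CCS had 109 and 93.7 CPM in generation 2, against 45.0 and 43.3 CPM in 30 °C-grown plants (1.2 ± 0.72). In all 3, both generation 2 libraries were clear of the 30 °C-grown pair, and the wild-type libraries were far apart, at 1032 and 138 CPM for CSD2. On the lower side, the iron-dependent FSD3 had 14.7 and 10.3 CPM in generation 2, against 18.9 and 26.4 CPM in 30 °C-grown plants (−0.86 ± 0.47). CAT3, an evening-phased catalase, had 619 and 605 CPM in generation 2, against 2044 and 1566 CPM in 30 °C-grown plants (−1.56 ± 0.57). APX2, a heat-induced ascorbate peroxidase, had 2 counts in generation 2 and 66 in 30 °C-grown plants, 28.7-fold lower with a 95% exact counting interval of 7.63 to 242.

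Nuclear photosynthesis genes lay higher in 11 of 41 cases without overlap and lower in 0. They stood higher mostly in library 1, where 36 exceeded the 30 °C-grown pair, against 15 above and 19 below it in library 2; their median length was 1101 bp, among the short genes that library 1 held at higher levels. The median of 0.62 turned to −0.06 without library 1 of generation 2, and it was 0.94 without library 2 and 0.54 with the length offset. The photosystem I genes PSAH2, PSAN and LHCA5 lay higher without overlap, with PSAH2 at 4434 and 1451 CPM in generation 2, against 1065 and 1379 CPM in 30 °C-grown plants (1.27 ± 0.55). LHCB1.4 had 16299 and 1473 CPM in generation 2, against 1664 and 1470.1 CPM in 30 °C-grown plants, high in library 1 alone. Of 10 senescence and chlorophyll breakdown genes tested, 3 lay higher and 1 lower without overlap, and the library medians were −0.56 in library 1 and 1.03 in library 2 on the log2(CPM + 0.5) scale. SGR1, which removes magnesium from chlorophyll, had 24.0 and 25.1 CPM in generation 2, against 10.6 and 9.85 CPM in 30 °C-grown plants (1.26 ± 0.32; called by DESeq2). NYC1, a chlorophyll b reductase, had 136 and 100.01 CPM in generation 2, against 58.3 and 55.1 CPM in 30 °C-grown plants (1.06 ± 0.35). NAP, a transcription factor of leaf senescence, had 38.2 and 164 CPM in generation 2, against 23.7 and 21.5 CPM in 30 °C-grown plants (2.16 ± 0.68). These 3 stood above the pair in both libraries. SWEET15, a sugar exporter of old leaves, lay lower, at 0.561 and 0.875 CPM in generation 2, against 6.12 and 5.50 CPM in 30 °C-grown plants (−3.00 ± 1.29). Of 21 expansin and xyloglucan enzyme genes, 3 lay higher and 2 lower without overlap, both shares under those of all genes. The libraries were opposed, with 16 genes above the pair in library 1 and 15 below it in library 2. The expansin EXPA10 had 17.61 and 13.9 CPM in generation 2, against 73.1 and 67.9 CPM in 30 °C-grown plants (−2.16 ± 0.62; called by DESeq2). The xyloglucan enzyme XTH31 had 159 and 106 CPM in generation 2, against 16.1 and 24.8 CPM in 30 °C-grown plants (2.70 ± 0.81; called by DESeq2), and the related XTH6 had 705 and 259 CPM in generation 2, against 110.2 and 85.5 CPM in 30 °C-grown plants (2.30 ± 0.83).

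Lists with no common side were cold and abscisic acid genes (6 of 22 higher and 5 lower without overlap), warm-temperature growth genes (2 of 15 and 3), flavonoid genes (3 of 9 and 1) and reference genes (1 of 13 and 2). RAB18, an abscisic acid-induced dehydrin, had 42.7 and 52.3 CPM in generation 2, against 23.61 and 22.4 CPM in 30 °C-grown plants (1.05 ± 0.35). The cold-responsive genes KIN1 and GOLS3 lay higher, KIN1 at 0.617 and 1.51 CPM in generation 2, against 0.0972 and 0.169 CPM in 30 °C-grown plants (2.93 ± 1.05) and GOLS3 at 6.17 and 12.3 CPM in generation 2, against 0.972 and 2.83 CPM in 30 °C-grown plants (2.28 ± 1.05). The cold regulator CBF3 lay lower, at 2.64 and 1.70 CPM in generation 2, against 9.52 and 8.75 CPM in 30 °C-grown plants (−2.07 ± 0.95). Among warm growth genes, PIF7, a light and warmth regulator, had a log2 fold change of 1.18 ± 0.66, with library 2 above the 30 °C-grown pair and library 1 within it. The related PIF3 had 4.93 and 12.0 CPM in generation 2, against 13.7 and 12.5 CPM in 30 °C-grown plants (−0.63 ± 0.45), and the photomorphogenesis regulator HY5 had 8.19 and 6.51 CPM in generation 2, against 11.4 and 9.47 CPM in 30 °C-grown plants (−0.51 ± 0.38). XTH15, a cell wall gene, had 1.74 and 0.583 CPM in generation 2, against 0.534 and 0.507 CPM in 30 °C-grown plants (1.14 ± 0.82), while PIF4, the main regulator of warm growth, overlapped between the groups, at 213 and 159 CPM in generation 2 and 184 and 133 CPM in 30 °C-grown plants (0.23 ± 0.43). In the flavonoid pathway, FLS1, flavonol synthase, had 6.56 and 49.7 CPM in generation 2, against 1.75 and 4.52 CPM in 30 °C-grown plants (3.16 ± 1.4), and CHI, chalcone isomerase, had 13.6 and 14.9 CPM in generation 2, against 7.24 and 4.90 CPM in 30 °C-grown plants (1.23 ± 0.58). F3H and CHS overlapped, with CHS, the entry enzyme, at 20.6 and 472 CPM in generation 2, against 21.1 and 51.1 CPM in 30 °C-grown plants. The reference genes had a median of 0.09; TUB2, a tubulin gene, had 45.6 and 83.4 CPM in generation 2, against 116 and 128 CPM in 30 °C-grown plants (−0.92 ± 0.39), and UBC9, ACT8 and YLS8 had log2 fold changes nearer 0.

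Genes were also ranked without lists, by the smallest edgeR p among those with a mean of 5 CPM or more over the 4 libraries, an absolute log2 fold change of 1 or more and no overlap (658 candidates higher and 637 lower). Each of the 12 genes ranked first in each direction was also called by DESeq2, and each had an edgeR adjusted p of 0.476. Both methods used the same counts, so the DESeq2 calls are not separate support. The ranking also favours genes whose paired libraries agree. First on the higher side was the glutaredoxin gene GRXC13 (AT2G47880, chromosome 2, 19605040 to 19605671), with 34.2 and 38.2 CPM in generation 2, against 1.60 and 3.30 CPM in 30 °C-grown plants (3.88 ± 0.47) and 9.86 and 12.4 CPM in wild type. Generation 2 lay above 30 °C-grown plants and wild type there, whereas generation 3, at 42.5 and 32.6 CPM, overlapped it. The transposable element gene AT4G04410 had 7.07 and 11.6 CPM in generation 2, against 0.875 and 1.14 CPM in 30 °C-grown plants (3.20 ± 0.49) and 48.0 and 23.3 CPM in wild type. AT3G16670, annotated in the table as a pollen Ole e 1 and extensin family gene, had 141 and 103 CPM in generation 2, against 10.01 and 17.59 CPM in 30 °C-grown plants (3.14 ± 0.53) and 158 and 81.8 CPM in wild type. For AT3G16670 the generation 2 libraries lay within the wild-type range, and for AT4G04410 they lay between the other groups. The autophagy protease gene ATG4A had 92.2 and 52.5 CPM in generation 2, against 16.2 and 14.8 CPM in 30 °C-grown plants (2.22 ± 0.40), and it overlaps AT2G44130, so reads cannot be assigned with certainty. The same holds for MIR850A, at 22.4 and 11.9 CPM in generation 2 and 2.82 and 3.21 CPM in 30 °C-grown plants, which lies within the noncoding gene AT4G13495 (663 and 379 CPM in generation 2, against 83.4 and 91.4 CPM in 30 °C-grown plants; 2.58 ± 0.47). RL4, a RADIALIS-like gene, had 97.5 and 41.3 CPM in generation 2, against 10.7 and 11.3 CPM in 30 °C-grown plants (2.66 ± 0.47). The receptor-like kinase gene CRK41 split by library, at 33.5 and 171 CPM in generation 2, against 7.87 and 11.0 CPM in 30 °C-grown plants (3.44 ± 0.71). SPL4, SNZ, AT4G14746 (3.09 ± 0.53) and DI19-5 (2.39 ± 0.45) made up the rest.

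On the lower side, AT3G07350, a DUF506 family gene of unknown function, came first, with 9.70 and 13.7 CPM in generation 2, against 104 and 76.7 CPM in 30 °C-grown plants (−2.95 ± 0.52). AT4G36850, annotated as a PQ-loop membrane protein, had 5.61 and 5.01 CPM in generation 2, against 205 and 133 CPM in 30 °C-grown plants (−4.99 ± 0.99), with wild type at 14.9 and 50.7 CPM. The arabinogalactan protein gene AGP31 had 1.51 and 2.43 CPM in generation 2, against 16.9 and 34.0 CPM in 30 °C-grown plants (−3.68 ± 0.67). These differences were many times the gap between the generation 2 libraries. CHI-B, a basic chitinase, had 0.785 and 1.26 CPM in generation 2, against 12.0 and 14.7 CPM in 30 °C-grown plants (−3.69 ± 0.71) and 0.707 and 2.55 CPM in wild type; it overlaps AT3G12502. MSI3, a WD-40 repeat gene, had 2.30 and 2.82 CPM in generation 2, against 11.2 and 11.9 CPM in 30 °C-grown plants (−2.17 ± 0.41). Both pairs of libraries agreed closely for these genes. SIGD, a sigma factor of the plastid RNA polymerase, had 17.77 and 21.72 CPM in generation 2, against 71.1 and 82.3 CPM in 30 °C-grown plants (−1.96 ± 0.39), and it overlaps AT5G13720. XYL1, an alpha-xylosidase that trims xyloglucan in the cell wall, had 108 and 114 CPM in generation 2, against 359 and 356 CPM in 30 °C-grown plants (−1.69 ± 0.35) and 439 and 596 CPM in wild type. XYL1 thus lay lower in generation 2 than in both other groups, with closely matching libraries. SULTR3;5 (−2.89 ± 0.55), MLP28 (−2.68 ± 0.53), CPuORF32 (−2.10 ± 0.41, overlapping the methyltransferase gene NMT3), HSP17.6A and ATP9 completed the 12.

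In bulk leaf RNA, fewer cells of a type and less RNA per cell cannot be told apart. Epidermis markers summed to 1251 and 725.6 CPM in generation 2, against 506 and 410.5 CPM in 30 °C-grown plants, with 3 of 6 genes higher and 1 lower without overlap. Of these, CER6 and CER5, of wax synthesis and export, had 797 and 368 CPM and 336 and 138 CPM in generation 2, against 250.1 and 182 CPM and 118 and 86.2 CPM in 30 °C-grown plants; GL2 lay lower and ATML1 higher. Guard cell markers (among them GC1, MYB60, KAT1 and HT1) summed to 139 and 86.9 CPM in generation 2, against 65.3 and 99.9 CPM in 30 °C-grown plants, and vascular markers (among them APL, SWEET11, SWEET12 and XCP1) to 221 and 445.8 CPM in generation 2, against 391 and 459.6 CPM in 30 °C-grown plants. The part of cell makeup in the results above was not tested.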

How the data were processed

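PolyA RNA of 10 Arabidopsis leaf libraries (2 per group) was sequenced by the authors. Reads were mapped with HISAT2 2.0.4 and StringTie 1.3.0 to TAIR10, per the submitters' processing notes. No source used here names the program that counted reads or its strand setting. The authors deposited 1 table holding raw read counts per gene and FPKM values, per the file headers. Counts were tested; the deposited FPKM values served only to derive gene length, and 2 FPKM columns with a repeated header were not used. Of 33602 genes, 19768 passed filterByExpr of edgeR 4.0.16 in R 4.3.3. All 10 libraries entered 1 quasi-likelihood fit on group with TMM scaling, and p-values were adjusted by Benjamini-Hochberg over all genes tested. CPM values use TMM-scaled library sizes. DESeq2 1.42.0, limma 3.58.1, other scalings and filters, a gene-length offset, a replicate block and leaving out each library were alternatives.

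The members and lists were chosen with earlier results of these data known. Named were the 12 genes per direction ranked first as described, up to 4 members of each list with the smallest p, and a few fixed by name (SGS3, HSFA2, HSP101, HSP70-4, HTT1, HTT2, HTT3, REF6, PHS1, GWD1, PU1, BT5, VSP2, LHCB1.3 and SPL4). ASN1, ATP1, CCA1, CCS, CSD1, FSD3, FT, GRP7, HSFB2A, HSP15.7, HSP17.4, HSP17.6B, HSP21.7, HSP90.1, LOX4, LUX, NPR4, PAD4, PIF4, PSBB, ROF2, SAG101, SPL5, WRKY40 and the searched motifs were chosen after their values were seen. Sequences come from RefSeq TAIR10.1, in which 32835 gene IDs matched; 18740 of 32823 nuclear genes (57.1%) shared a start or end with the deposited table, so gene coordinates are those of the table and promoter coordinates those of RefSeq. Count ratios with few counts carry exact 95% intervals, and a floor of 3 counts over the group stands for a count of 0; both cover counting error only.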

Additional observations from a re-analysis of the deposited data

How the results depend on the processing

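Over 21 alternatives, 115 of 122 single genes with a printed fold change kept their direction; HTT2, PIF4, PIF7, CCA1, REF6, WRKY6 and HSFC1 did not. The edgeR counts of genes called were 0 higher and 0 lower in every edgeR alternative except those without library 1 of generation 2; DESeq2 called 219 and 126. Leaving out 1 library gave 0 to 453 genes called higher and 0 to 34 called lower; the range of the log2 medians was −3.52 to −1.51 for small heat shock proteins, −0.24 to 3.37 for salicylic acid genes, −1.92 to −1.20 for sugar starvation genes and −1.66 to −0.47 for glucosinolate genes. Without library 1 of generation 2 and library 1 of generation 3 together, an alternative chosen after seeing the data, 676 genes were called higher and 112 lower. SGS3 passed the threshold with DESeq2 alone, at −1.43. HTT2, close to 0, reversed with upper-quartile scaling (−0.050), with no filter on low counts (−0.018) and in leave-outs, where it spanned −0.28 to 0.15. PIF4 spanned −0.054 to 0.41, PIF7 −0.14 to 1.81, WRKY6 −0.30 to 3.32, HSFC1 −0.23 to 2.87, CCA1 −1.45 to 2.03 and REF6 −2.65 to 0.068 in leave-outs, and REF6 was 0.11 without library 1 of both generations. The causes were not tested. The labels tie no replicate number to a shared plant or batch. Deviations of same-numbered libraries correlated at 0.248 between generation 2 and 30 °C-grown plants and at −0.267 to 0.496 over all pairs of groups. The pairing therefore rests on a shared number alone. With the replicate block the calls stayed at 0, and medians were −2.75 for small heat shock proteins (−2.80 with the gene-length offset added), −1.19 for larger chaperones (main −0.77) and 0.43 for jasmonate genes (main 1.08).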
